A study of Homo sapiens with 13 samples.

Results

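Arrays that combine binding motifs of IRF and MYC were taken from a series of designed enhancers tested by STARR-seq in MEC1 cells. An array belonged here when its construct name held these 2 motif names and no other. The 5 bp episomal library held 12 such constructs among 542, the 10 bp episomal library 6 among 442 and the integrated 5 bp library 12 among 513. The 12 constructs were 4 designs (IRF-MYC, MYC-IRF, IRF-MYC-IRF and MYC-IRF-MYC, written in the order of the construct name) in each of 3 flanking contexts. With 10 bp spacers only IRF-MYC and MYC-IRF were measured here. No array of this pair with 4 or 5 motifs was among the analysed constructs, although the series went up to 5 motifs. All members passed the filters on barcodes.

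MEC1 is a cell line established from chronic lymphocytic leukaemia, a cancer of B cells, and is labelled wild type, with a landing pad added for the integrated assay. In STARR-seq the tested sequence lies inside the reporter transcript, so an active enhancer raises its own share of the mRNA. For the episomal assay, mRNA was collected 24 h after transfection, in duplicate, beside 1 plasmid DNA library per spacer length. In the integrated assay, CRE recombinase exchanged the 5 bp library into a landing pad with a GFP cassette, cells that had lost GFP were sorted after 10 to 12 days and grown for another 6 to 7 days, and mRNA and genomic DNA were extracted together in triplicate. References were arrays of IRF alone or MYC alone with the same number of motifs in the same context, and 3 constructs named rd, 1 per context, whose names hold none of the 8 motifs and which stand for arrays without a motif. Nothing in the labels says that the triplicate extractions came from separate cultures, so integrated p-values measure the spread between extractions, which may be technical.

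Interferon regulatory factors are a family of DNA-binding proteins that switch on interferon-response and immune genes, and IRF4 and IRF8 are central regulators of B cells. MYC binds E-box motifs together with its partner MAX and drives genes of growth, ribosome production and cell division. Which family member bound these motifs in MEC1 cells was not measured here.

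The sources used here do not give the motif and flanking sequences of the arrays. Each copy of a construct is known by its random barcode of 12 bases. A few such barcodes are shown because each carried most of the integrated mRNA of its construct and so set that construct's level. Lower case is used throughout, since no base within a barcode is singled out.
IRF-MYC, context 2: cttttcgaagtt
MYC-IRF-MYC, context 3: attgttatgttc
MYC-MYC-MYC, context 3: tgacaagcgcag
rd, context 2: atgattacgcaa
The IRF-MYC barcode held 80.2% of the mRNA of its construct among 28 barcodes, with 404, 827 and 449 RPM (reads scaled by the authors to a common library total) in mRNA against 84.6, 60.3 and 61.7 RPM in genomic DNA. In the 5 bp episomal library the same barcode had 2 and 1 mRNA reads against 7 plasmid reads. The MYC-IRF-MYC barcode held 77.2% among 103 barcodes, with 1274, 1420 and 1306 RPM in mRNA against 147, 135 and 63.9 RPM in genomic DNA, and 1 and 2 mRNA reads against 15 plasmid reads in the episomal library. The barcode of the reference array MYC-MYC-MYC held 96.4% among 127 barcodes, with 68400, 69292 and 74273 RPM in mRNA against 307, 217 and 257 RPM in genomic DNA. The rd barcode held 84.0% among 38 barcodes. None of the other 10 integrated members had a barcode with more than 42.7% of its mRNA, and in the episomal libraries no barcode held more than 2.26% of a member's mRNA.

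The episomal libraries held between 3850658 and 4563359 reads. Members rested on 374 to 1403 barcodes at 5 bp, 452 to 774 at 10 bp and 27 to 103 after integration. Activity is the share of a construct in mRNA over its share in plasmid DNA, on the log2 scale, so 0 means equal shares. For the integrated library it is mRNA RPM over genomic DNA RPM, each summed over barcodes. The 2 episomal mRNA libraries of a spacer share 1 plasmid library, whose own spread was not measured and was taken to equal that of the mRNA in the tests. Episomal tables list only barcodes with at least 1 read in each library. At exactly 1 read in mRNA replicate 1 stood between 11.3% and 26.8% of a member's barcodes at 5 bp and between 3.08% and 9.3% at 10 bp.

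With 5 bp spacers the mixed arrays held a smaller share of mRNA than of plasmid DNA. IRF-MYC had activities of -0.81 and -0.74 in context 1, -1.38 and -1.39 in context 2 and -1.81 and -1.60 in context 3 in the 2 mRNA replicates. MYC-IRF stood at -0.96 and -0.96 in context 1, -1.31 and -1.37 in context 2 and -1.53 and -1.52 in context 3. Both orders were thus lowest in context 3 and highest in context 1, and the contexts did not overlap within either order. IRF-MYC-IRF stood at -1.04 and -1.02 in context 1, -1.53 and -1.52 in context 2 and -0.88 and -0.76 in context 3. MYC-IRF-MYC was the lowest design on average, though in context 3 it overlapped IRF-MYC. It stood at -1.44 and -1.50 in context 1, -1.62 and -1.75 in context 2 and -1.71 and -1.74 in context 3. Averaged over contexts, MYC-IRF-MYC stood at -1.63 ± 0.05 (SD, n = 2), IRF-MYC at -1.29 ± 0.06, MYC-IRF at -1.28 ± 0.01 and IRF-MYC-IRF at -1.13 ± 0.04, against -1.30 ± 0.0018 for the constructs without a motif.

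Set against plasmid DNA by edgeR's quasi-likelihood test with TMM scaling over the 442 constructs of both episomal libraries, 6 of 6 arrays of 2 motifs were lower in mRNA at 5 bp (adjusted p under 0.05), where 49.5% of all constructs were lower and 40.5% higher. The log2 ratios lay between -1.16 for IRF-MYC in context 3 (SE 0.07) and -0.23 for IRF-MYC in context 1 (SE 0.07). With the 5 bp library fitted alone, 10 of 12 arrays were lower and 0 higher, where 45.2% of constructs were lower and 42.6% higher. The exceptions were IRF-MYC in context 1 at -0.04 and IRF-MYC-IRF in context 3 at -0.09. These signs follow the scaling: scaled on the constructs without a motif, which moved the median of all constructs by 0.75, 2 of the 6 were higher and 2 lower. The differences between constructs in the next paragraphs do not depend on it.

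In contexts 1 and 3 the 2-motif mixed arrays at 5 bp lay below both of their homotypic counterparts, that of MYC included. In context 1 the homotypic arrays of 2 motifs had activities of -0.11 and -0.08 for IRF-IRF and of -0.10 and -0.18 for MYC-MYC, so every mixed value lay below every homotypic one. In context 3 IRF-IRF stood at -1.21 and -1.11 and MYC-MYC at -0.90 and -0.96, again above all values of IRF-MYC and MYC-IRF. In context 2 IRF-IRF was high, at -0.40 and -0.24, but MYC-MYC stood at -1.33 and -1.42 and overlapped the mixed arrays. Against the IRF array of equal motif number, 12 of 12 mixed arrays were lower (limma, adjusted p under 0.05; 42% of all mixed arrays that hold IRF) and 0 higher (41%), with a median log2 difference of -0.72 beside -0.0032 over all of these. Against the MYC array, 8 of 12 were lower (51%) and 1 was higher (30.6%), with a median of -0.36 beside -0.21.

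Altogether 8 of 12 mixed arrays passed as lower than both of their homotypic arrays at 5 bp, where 6.7% of the 418 mixed arrays of the series did, and 0 of 12 as higher than both (29.9%). In context 1 these were all 4 designs, in context 2 MYC-IRF-MYC, and in context 3 the designs other than IRF-MYC-IRF. MYC-IRF in context 1 differed by -0.87 (SE 0.07) from IRF-IRF and by -0.82 (SE 0.08) from MYC-MYC, with limma adjusted p of 0.000265 and 0.000417. The array that passed as higher than MYC was IRF-MYC-IRF in context 3, at 0.53 (SE 0.10) over MYC-MYC-MYC and -0.22 (SE 0.07) from IRF-IRF-IRF, with limma adjusted p of 0.00554 and 0.0438. Both orders of 2 motifs share their homotypic arrays within a context, as do the designs of 3 motifs, so these counts are not independent. In the fits without mRNA replicate 1 or 2, run over the 6 arrays of 2 motifs, 4 of 6 were lower than both, as in the full data.

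Against the mean of both homotypic activities weighted by motif copies, called the expected value below, 11 of 12 mixed arrays were lower at 5 bp (30.9% of all mixed arrays) and 0 were higher (56.9%). The median departure was -0.52, beside 0.37 over all 418 mixed arrays. Departures ran from -0.85 (SE 0.07) for MYC-IRF in context 1 and -0.77 (SE 0.07) for MYC-IRF-MYC in context 1 to 0.03 (SE 0.07) for IRF-MYC-IRF in context 3. Among the 28 motif pairs the median departure of IRF with MYC had rank 7 from the lowest, and the pairs below it all held CTCF, a factor of chromatin loops and insulation.

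Adding a motif of the other kind to a single motif was also followed at 5 bp, as values without a test. IRF-MYC minus a lone IRF motif was -0.23 ± 0.03 in context 1, -1.17 ± 0.04 in context 2 and -0.30 ± 0.05 in context 3 (SD, n = 2). MYC-IRF minus a lone IRF motif was -0.42 ± 0.03, -1.13 ± 0.08 and -0.12 ± 0.09 in the same contexts. Every replicate of both orders thus fell below the lone IRF motif. Against a lone MYC motif, MYC-IRF stood at -0.16, -0.22 and -0.29 and IRF-MYC at 0.03, -0.27 and -0.47 in contexts 1, 2 and 3.

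Among the arrays of 3 motifs, the design with more IRF was the higher. The designs also differ in the motif at the centre, which cannot be told apart from composition. IRF-MYC-IRF minus MYC-IRF-MYC was 0.44 ± 0.06 in context 1, 0.16 ± 0.10 in context 2 and 0.90 ± 0.11 in context 3 at 5 bp (SD, n = 2), positive in both replicates of each context. For IRF-MYC-IRF the value in context 3 exceeded that in context 2 by 0.70 ± 0.07. Arrays of 2 motifs ran the other way, where context 3 minus context 2 was -0.32 ± 0.16 for IRF-MYC and -0.19 ± 0.05 for MYC-IRF. For MYC-IRF-MYC the same difference was -0.04 ± 0.06, within the spread of the replicates.

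Against the construct without a motif of the same context, 4 of 12 mixed 5 bp arrays were higher (61% of all arrays) and 5 lower (28.4%) by limma, with a median of -0.17 beside 0.51 over all arrays. The 4 were IRF-MYC (0.47, SE 0.08), MYC-IRF (0.28, SE 0.08) and IRF-MYC-IRF (0.22, SE 0.08) in context 1 and IRF-MYC-IRF in context 3 (0.72, SE 0.08). All 4 designs were lower in context 2, between -0.57 and -0.23, and MYC-IRF-MYC was lower in context 1 at -0.22. Some of these calls were near the threshold, such as MYC-IRF-MYC in context 1 (limma adjusted p = 0.0438). Others were not, such as IRF-MYC-IRF in context 3 (limma adjusted p = 0.000164). Leaving out 1 mRNA replicate could be tested only for the arrays of 2 motifs, in a fit over both episomal libraries. Some of their calls were then lost. MYC-IRF in context 2 was lost in that fit also with all replicates kept (limma adjusted p = 0.0577). Without mRNA replicate 1, MYC-IRF in context 1 stood at 0.26, and IRF-MYC and MYC-IRF in context 2 at -0.22 and -0.20.

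With 10 bp spacers the mixed arrays took a place between the homotypic arrays. IRF-MYC had activities of -0.23 and -0.35 in context 1, -0.83 and -0.76 in context 2 and 0.02 and -0.04 in context 3. MYC-IRF stood at 0.13 and 0.08 in context 1, -0.54 and -0.60 in context 2 and 0.22 and 0.15 in context 3. IRF-IRF stood far above them, at 1.76 and 1.77 in context 1, 1.55 and 1.60 in context 2 and 1.16 and 1.24 in context 3. MYC-MYC stood below, at -1.10 and -1.28, -1.65 and -1.81, and -1.30 and -1.46 in contexts 1, 2 and 3. No mixed value overlapped a homotypic one in its context.

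By limma 6 of 6 mixed 10 bp arrays were lower than IRF-IRF and 0 higher (76.8% and 13% of all mixed arrays with IRF), at a median of -1.86 beside -0.74 over all of these. Against MYC-MYC, 6 of 6 were higher and 0 lower (73.9% and 15.9% of those with MYC), at a median of 1.23 beside 0.74. So 6 of 6 lay between both, as did 33.6% of the 318 mixed arrays tested. The difference from IRF-IRF ran from -2.37 (SE 0.10) for IRF-MYC in context 2, a 5.17-fold lower level, to -1.02 (SE 0.11) for MYC-IRF in context 3. The difference from MYC-MYC ran from 0.90 (SE 0.10) for IRF-MYC in context 1 to 1.57 (SE 0.10) for MYC-IRF in context 3. Replacing the MYC motif of a mixed pair by a second IRF motif thus went with a higher level in every context, and replacing the IRF motif by a second MYC motif with a lower one.

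Relative to the expected value, 4 of 6 mixed 10 bp arrays were lower (22% of all mixed arrays) and 1 was higher (66%), with a median departure of -0.34 beside 0.53 over all mixed arrays. The departures depended on the context. IRF-MYC stood at -0.58 (SE 0.06) and MYC-IRF at -0.18 (SE 0.06) in context 1, and at -0.72 (SE 0.07) and -0.49 (SE 0.06) in context 2. In context 3 IRF-MYC departed by 0.08 (SE 0.06), which did not pass, and MYC-IRF by 0.28 (SE 0.06; limma adjusted p = 0.00536). The expected value is the mean of log2 levels. With the linear mean of both homotypic levels, which lies above it, 6 of 6 were lower and MYC-IRF in context 3 stood at -0.24. Among the 28 pairs this pair had rank 6 from the lowest, again with pairs of CTCF below it.

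A lone IRF motif was itself more active than the mixed pairs at 10 bp. IRF-MYC minus IRF was -0.67 ± 0.0035 in context 1, -0.46 ± 0.09 in context 2 and -1.18 ± 0.03 in context 3 (SD, n = 2), and MYC-IRF minus IRF was -0.27 ± 0.04, -0.23 ± 0.0009 and -0.98 ± 0.04. Adding a second IRF motif gave 1.39 ± 0.09, 1.91 ± 0.07 and 0.04 ± 0.07 in the same contexts. So the mixed pairs fell below the lone IRF motif in each context, while IRF-IRF exceeded it in contexts 1 and 2 and differed from it by less than the spread in context 3. Against a lone MYC motif the mixed pairs were higher, by 0.30 to 1.25.

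In mRNA against plasmid DNA, edgeR called 4 of 6 mixed 10 bp arrays higher (45.7% of constructs) and 1 lower (48.6%). The log2 ratios of MYC-IRF were 0.66 (SE 0.06) and 0.74 (SE 0.07) in contexts 1 and 3, and those of IRF-MYC were 0.26 (SE 0.07) and 0.54 (SE 0.07) in the same contexts. In context 2 IRF-MYC was lower at -0.24 (SE 0.06) and MYC-IRF stood at -0.02. By library totals, which moved the median of all constructs by -0.55, 1 array was higher and 3 were lower. Against the construct without a motif, 4 of 6 were higher (44.4%) and 2 lower (44%) by limma. The 4 were the arrays of contexts 1 and 3, between 0.39 (SE 0.12) for IRF-MYC in context 1 and 1.06 (SE 0.12) for MYC-IRF in context 3, and the 2 were those of context 2, at -0.49 and -0.26.

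Between spacers, 6 of 6 mixed arrays had a higher mRNA to plasmid ratio with 10 bp than with 5 bp (edgeR, adjusted p under 0.05; 36% of constructs were higher and 41.2% lower). IRF-MYC differed by 0.50 (SE 0.09), 0.60 (SE 0.09) and 1.71 (SE 0.10) in contexts 1, 2 and 3, and MYC-IRF by 1.08 (SE 0.09), 0.78 (SE 0.09) and 1.73 (SE 0.09), a 3.31-fold difference in the last. Scaled on the constructs without a motif, which moved the median of all constructs by -0.71, 3 of 6 were higher and IRF-MYC stood at -0.22 and -0.10 in contexts 1 and 2. Over contexts, activity at 10 bp against 5 bp averaged -0.37 against -1.29 for IRF-MYC and -0.09 against -1.28 for MYC-IRF. For the homotypic arrays it was 1.51 against -0.53 for IRF-IRF, -1.44 against -0.82 for MYC-MYC and -0.62 against -1.30 without a motif. Each spacer was its own plasmid pool with its own transfections, so spacer and pool cannot be told apart.

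Relative to each homotypic array the change of spacer went in opposite directions. Against IRF-IRF, 6 of 6 mixed arrays stood lower at 10 bp than at 5 bp (limma on the difference of differences, 85.5% of mixed arrays with IRF), between -1.38 and -0.65, with a median of -0.96 beside -1.13 over all of these. Against MYC-MYC, 6 of 6 stood higher (59.4% of those with MYC), between 0.95 and 2.16, with a median of 1.83 beside 0.69 over all of these. The departure from the expected value was higher at 10 bp in 3 of 6 arrays (35.2% of mixed arrays) and lower in 0 (34.6%). These were MYC-IRF in context 1 (0.66, SE 0.07) and both orders in context 3 (0.74, SE 0.13 for IRF-MYC and 0.76, SE 0.07 for MYC-IRF). The expected value is a log2 mean, which falls further below the linear mean the more the homotypic arrays differ. IRF-IRF and MYC-MYC averaged 1.51 and -1.44 at 10 bp but -0.53 and -0.82 at 5 bp. With the linear mean the median departure at 10 bp was -1.04 instead of -0.34. The change between spacers was not tested with that mean.

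The order of the motifs made a small difference at 10 bp. IRF-MYC minus MYC-IRF was -0.40 (SE 0.05) in context 1, -0.23 (SE 0.07) in context 2 and -0.20 (SE 0.03) in context 3, with limma adjusted p of 0.02, 0.0992 and 0.0278. So 2 of 3 contexts passed as lower with IRF leading and 0 as higher (32.1% and 25% of the 84 exchanged pairs), and both replicates of all 3 contexts had that direction. In the fit over both episomal libraries the call in context 3 was lost (limma adjusted p = 0.0838) and context 2 passed (limma adjusted p = 0.0254). Fits without 1 mRNA replicate also ran over both libraries, so they do not separate the replicate from the change of fit. Context 3 stood at -0.19 without mRNA replicate 1 and -0.21 without mRNA replicate 2. Context 2 stood at -0.29 without mRNA replicate 2. At 5 bp the difference was 0.19, -0.05 and -0.18 (SE 0.10 each), and 0 of 3 passed as higher (28.6%) or lower (38.1%) in the fit of that library. In the fit over both libraries, from which the differences between spacers come, context 1 passed as higher (limma adjusted p = 0.0278). The change of the order effect between spacers was -0.59 (SE 0.09) in context 1, with a limma adjusted p of 0.00117 (22.6% of pairs passed as lower and 34.5% as higher), -0.18 (SE 0.10) in context 2 and -0.02 (SE 0.12) in context 3.

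After integration, the designs of 3 motifs differed more from each other than the orders of 2 motifs did. Composition and the central motif cannot be told apart in the designs of 3 motifs. IRF-MYC-IRF had activities of -0.74, -0.25 and -0.75 in context 1, -0.06, 0.28 and 0.19 in context 2 and 1.32, 0.70 and 0.99 in context 3 in the 3 mRNA samples. MYC-IRF-MYC stood at -2.30, -2.54 and -3.10 in context 1, -0.82, -1.47 and -1.33 in context 2 and -0.73, -0.65 and -0.52 in context 3. The designs did not overlap in any context, and IRF-MYC-IRF was higher by 2.07 ± 0.45, 1.34 ± 0.52 and 1.64 ± 0.36 (SD, n = 3, no test). IRF-MYC stood at -0.79, -0.72 and -0.26 in context 1, -1.18, -0.44 and -1.07 in context 2 and -1.76, -1.26 and -2.19 in context 3. MYC-IRF stood at -1.02, -1.36 and -1.96 in context 1, -2.26, -1.82 and -1.70 in context 2 and -2.71, -1.78 and -2.76 in context 3. All 4 designs are given as log2 of mRNA RPM over genomic DNA RPM, with 0.5 RPM added to each sum.

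Against genomic DNA, limma called 1 of 12 mixed integrated arrays higher (13.5% of constructs) and 9 lower (55.9%). Their median was -1.05, above the -1.45 over all constructs. The higher one was IRF-MYC-IRF in context 3 at 1.00 (SE 0.20; limma adjusted p = 0.00881), and the lowest was MYC-IRF-MYC in context 1 at -2.65 (SE 0.25). Centred on the constructs without a motif, which moved the median by 1.34, 4 were higher and 2 lower. Without any 1 of the 3 genomic DNA samples, 6 of 12 passed as lower.

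Integrated mixed arrays lay below the IRF arrays in most cases. The IRF-IRF activities were 0.96, 0.94 and 1.20 in context 1, 1.87, 1.58 and 1.80 in context 2 and 0.02, -0.80 and -0.60 in context 3. Those of IRF-IRF-IRF averaged 1.57 ± 0.16, 0.68 ± 0.34 and 2.15 ± 0.17 (SD, n = 3) in contexts 1, 2 and 3. By limma 10 of 12 mixed arrays were lower than the IRF array of equal motif number (68.5% of mixed arrays with IRF) and 0 higher (4.35%), with a median of -2.05, beside -1.88 over all mixed arrays with IRF, and a range from -4.21 to -0.55. The 2 that did not pass were IRF-MYC in context 3 (-1.27, SE 0.42) and IRF-MYC-IRF in context 2 (-0.55, SE 0.33).

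Comparisons with integrated MYC arrays rested on few barcodes with mRNA. Over all contexts, 41 of 137 barcodes of MYC-MYC and 56 of 280 of MYC-MYC-MYC had mRNA in any sample. Against MYC 2 of 12 mixed arrays were higher (19.8%) and 3 lower (30.2%), with a median of -0.03 beside -1.11 over all mixed arrays with MYC. The 2 were IRF-MYC-IRF in context 1 (2.42, SE 0.29) and context 2 (1.35, SE 0.37). The 3 lower ones were MYC-IRF in context 3 (-1.42, SE 0.30) and both arrays of 3 motifs in context 3 (-4.91, SE 0.20 for MYC-IRF-MYC and -3.27, SE 0.25 for IRF-MYC-IRF). The reference of the last 2 was MYC-MYC-MYC, whose mRNA over genomic DNA log2 ratio was 4.27 with the barcode shown above and -0.43 without it. For MYC-IRF in context 3 it was MYC-MYC, where 1 barcode held 74.2% of the mRNA. Its ratio was -0.98 with that barcode and -2.92 without it. Without the barcode of most mRNA in each construct, 2 were higher and 1 lower, and they were in part other arrays. IRF-MYC-IRF in context 2 was lost (1.27, limma adjusted p = 0.102), and IRF-MYC in context 3 passed as higher (1.26, limma adjusted p = 0.0482), where it had stood at -0.74. IRF-MYC-IRF and MYC-IRF in context 3 then stood at 1.14 and 0.43 over their MYC arrays and did not pass.

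Against the expected value, 7 of 12 integrated mixed arrays were lower (15.5% of mixed arrays) and 0 higher (24.3%), with a median of -1.09 beside 0.20 over all mixed arrays. In the 3 contexts MYC-IRF stood at -1.70, -1.63 and -1.69 (SE 0.38, 0.35 and 0.36). The lowest departure was that of MYC-IRF-MYC in context 3, at -4.20 (SE 0.21), and IRF-MYC-IRF there stood at -1.85 (SE 0.28). The expected value of both includes MYC-MYC-MYC in context 3, where 1 barcode held 96.4% of the mRNA. Without the barcode of most mRNA per construct, 2 of 12 were lower, at a median of -0.99. These included IRF-MYC in context 2 (-2.64, limma adjusted p = 0.00868), which had stood at -0.60 and had not passed. None of the 3 departures of MYC-IRF passed then (limma adjusted p = 0.0824, 0.098 and 0.132). Nor did that of IRF-MYC-IRF in context 3 (-0.49, limma adjusted p = 0.27). Passing as lower than both homotypic arrays were 3 of 12 (5.87% of mixed arrays) and as between them 1 of 12 (10.9%), against 1 and 1 without those barcodes. The pair had rank 7 of 28 from the lowest. Unlike in the episomal libraries, the pairs below it were not all pairs of CTCF, but included FOXO with MYC and IRF with NFKB.

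The constructs without a motif differed widely among themselves after integration, at 0.60, 1.37 and 0.29 in context 2 but -3.52, -3.79 and -4.00 in context 3. Against them, 4 of 12 mixed arrays were higher (30.4%) and 4 lower (29.4%). The 4 higher were all designs in context 3, and 3 of the 4 lower lay in context 2. Without the barcode of most mRNA per construct, 4 were again higher, but not the same 4, and 0 lower. MYC-IRF-MYC in context 3 no longer passed (2.07, limma adjusted p = 0.0816), while IRF-MYC-IRF in context 1 did (1.81, limma adjusted p = 0.0287). For motif order, IRF-MYC minus MYC-IRF was 0.86 (SE 0.43), 1.03 (SE 0.29) and 0.68 (SE 0.26) in contexts 1, 2 and 3, where context 2 passed (limma adjusted p = 0.0471; 16.7% of exchanged pairs were higher). That call was lost without mRNA replicate 1 or mRNA replicate 2, and without the barcode of most mRNA it stood at -0.97.

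Counting each barcode once avoids the weight of single barcodes. Of the 164 barcodes of IRF-MYC-IRF, 40.9%, 51.2% and 37.8% had mRNA in the 3 samples, against 13.4%, 12.0% and 10.6% of the 217 barcodes of MYC-IRF-MYC. The mean was 43.3% ± 7.03 for IRF-MYC-IRF and 12.0% ± 1.38 for MYC-IRF-MYC (SD, n = 3), and the samples did not overlap. These shares are over all contexts. By context, IRF-MYC-IRF averaged 32.7%, 30.4% and 56.3% in contexts 1, 2 and 3, against 10.9%, 20.1% and 8.41% for MYC-IRF-MYC, so the gap was smallest in context 2. Among references of 3 motifs, IRF-IRF-IRF stood at 65.1% ± 8.73, MYC-MYC-MYC at 9.40% ± 1.44 and the constructs without a motif at 9.49% ± 3.08. Arrays of 2 motifs stood at 21.6% ± 2.96 for IRF-MYC and 21.1% ± 5.86 for MYC-IRF, which overlapped, against 63.7% ± 4.49 for IRF-IRF and 15.8% ± 1.52 for MYC-MYC. A lone IRF motif gave 37.1% ± 4.45 and a lone MYC motif 11.1% ± 4.19. By this share over all contexts both mixed pairs lay below a lone IRF motif in each sample. By context the exception was IRF-MYC in context 3, at 37.0% against 34.4% in mRNA sample 2. The 3 samples hold the same barcodes, 287 of the 561 member barcodes carry the same construct name in the 5 bp episomal table, and the share was not tested.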

How the data were processed

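For the episomal libraries the deposited values are raw counts of reads for each barcode, per the file headers. The authors deposited RPM per barcode for mRNA and genomic DNA of the integrated library, where every listed barcode had at least 2.02 RPM in each genomic DNA sample. Plasmid DNA of the integrated library was deposited as counts and not used. The sources used here do not name the barcode counting, the aligner or their versions, and 9 columns of per-sample values matched no label and were not used. RPM values lay on a grid of 0.0819 to 0.124 RPM, but low mRNA values were too few to recover reads, so they were not given a count test.

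Episomal barcodes without a construct name held 16.6% to 18.5% of reads and were left out of library sizes and tests. Named barcodes with at least 5 plasmid reads were added up for each construct, keeping those of at least 5 barcodes (integrated: 3). In R 4.3.3, edgeR 4.0.16 (quasi-likelihood, TMM) tested mRNA against plasmid DNA over the 442 constructs of both episomal libraries in 1 fit. The 3-motif designs came from a fit of the 5 bp library alone, added after seeing the data. limma 3.58.1 tested integrated log2(summed RPM + 0.5), which understates folds of weak constructs, and all differences between constructs (against each homotypic array, the copy-weighted mean of both, rd, or the exchanged order). Spacer differences in mRNA against plasmid DNA came from the edgeR fit. Changes of the differences between constructs with the spacer came from 1 limma fit over both episomal libraries, also added after seeing the data. The Benjamini-Hochberg adjustment ran over all constructs, mixed arrays or exchanged pairs of a library, with 0.05 as the threshold. The scripts were tested on simulated data. The replicate mRNA libraries differed by more than sampling noise (chi-square per degree of freedom of 6.41 at 5 bp and 6.76 at 10 bp). Reads are PCR copies without molecular identifiers and so exceed the number of independent molecules.

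Every member was named, with values per sample. Members, lists and tests were chosen with earlier results of these data known. Alternatives covered scaling, read, barcode and pseudocount minimums, DESeq2 1.42.0, other expectations, the barcode of most mRNA, replicates left out and a replicate block.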

Additional observations from a re-analysis of the deposited data

Results flagged for a closer look

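The departure of a mixed array from the copy-weighted mean of its homotypic arrays differed between spacers in 3 of 6 arrays. Taken as 10 bp minus 5 bp, the difference was 0.74 (SE 0.13; limma adjusted p = 0.00529) for IRF-MYC in context 3. For MYC-IRF it was 0.66 (SE 0.07; adjusted p = 0.000966, limma) in context 1 and 0.76 (SE 0.07; adjusted p = 0.000616, limma) in context 3. Over all mixed arrays 35.2% passed as higher and 34.6% as lower. Neither order passed in context 2, at -0.18 for IRF-MYC and 0.0039 for MYC-IRF. The copy-weighted mean was taken over log2 levels, and the difference between spacers was not tested with the linear mean. With the linear mean, the 10 bp departures in context 3 were -0.44 for IRF-MYC and -0.24 for MYC-IRF.

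The effect of motif order also differed between spacers, by -0.59 (SE 0.09; limma adjusted p = 0.00117) in context 1. There IRF-MYC minus MYC-IRF was -0.40 at 10 bp, against 0.19 at 5 bp. The 0.19 did not pass in the fit of the 5 bp library but passed in the fit over both episomal libraries (limma adjusted p = 0.0278), from which the difference comes. Spacer and plasmid pool cannot be told apart in either difference.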

How the results depend on the processing

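Results on 2-motif arrays against their homotypic arrays changed little with the settings tried at either spacer: the same number lay below both at 5 bp (4 of 6) and between them at 10 bp (6 of 6) without mRNA replicate 1 or 2. With other minimums of reads or barcodes, 7 to 9 of 12 lay below both at 5 bp. There the 1 array between both became 0 with at least 20 plasmid reads or without the top barcode, which is the barcode of most mRNA in a construct. Replicate numbers did not pair the samples (correlations of deviations between -0.03 and 0.05). With a replicate block, integrated departures called lower went to 2 (from 7), arrays below both to 1 (from 3), arrays above MYC to 1 (from 2) and order calls to 0 (from 1), and the 6 spacer calls stayed 6. Calls against DNA followed the scaling. Scaled on rd, 5 bp calls became 2 higher and 2 lower (4 and 6 in the 5 bp library alone) and spacer calls 3. By library totals 10 bp calls became 1 higher and 3 lower, with a median of -0.15. Centred on rd, integrated calls became 4 higher and 2 lower, with a median of 0.29.

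Signs turned as follows. Scaled on rd at 5 bp, IRF-MYC and MYC-IRF in context 1 stood at 0.52 and 0.33 in either fit, and in the 5 bp library alone IRF-MYC-IRF at 0.26 in context 1 and 0.47 in context 3. The spacer difference of IRF-MYC became -0.22 and -0.10 in contexts 1 and 2. By library totals IRF-MYC at 10 bp stood at -0.29 in context 1 and -0.011 in context 3. Centred on rd, integrated IRF-MYC stood at 0.75 and 0.45 in contexts 1 and 2, IRF-MYC-IRF at 0.76 in context 1 and MYC-IRF-MYC at 0.13 and 0.71 in contexts 2 and 3. With the higher homotypic array or the linear mean expected, both at or above the log2 mean by construction, departures called higher at 10 bp became 0 (from 1), with -1.21 and -0.44 for IRF-MYC and -1.02 and -0.24 for MYC-IRF in context 3, integrated ones called lower became 11 under each, and IRF-MYC-IRF in context 3 at 5 bp became -0.22 against the higher array. Without the top barcode, integrated departures called lower became 2, arrays below both 1, below MYC 1, below rd 0 and order calls 0. The departures called lower then included IRF-MYC in context 2 (-2.64), which had not passed before. In context 3 the differences from MYC became 1.26 for IRF-MYC, 1.14 for IRF-MYC-IRF and 0.43 for MYC-IRF, in context 2 the order difference became -0.97 and MYC-IRF-MYC against rd 0.41, and medians became 0.40 against MYC and 1.39 against rd.

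Leaving out 1 sample at a time, the integrated counts ran from 0 to 1 for order, 1 to 2 above MYC, 1 to 2 between both, 2 to 3 below both, 7 to 9 for lower departures and 6 to 9 lower than genomic DNA. Integrated medians ran from -0.083 to 0.021 against MYC and -0.057 to 0.014 against rd. At 5 bp, 1 to 2 of 6 were above rd, 0 to 1 below it, and 0 to 1 of 3 lower with IRF leading, and at 10 bp 1 to 2 of 3. The episomal fits with a sample left out ran over both libraries together. In that fit with all samples kept, 1 of 3 orders at 5 bp was higher and 1 of 6 arrays lower than rd. With at least 20 plasmid reads 1 of 6 at 10 bp was lower than rd. Over all members and settings, 68 single calls were lost and 29 gained in the same direction. The call of IRF-MYC in context 1 at 5 bp was lost with DESeq2 (-0.13), at least 20 plasmid reads (-0.16), the 5 bp library alone (-0.04) or without mRNA replicate 1 (-0.21). The cause of these changes was not tested. Few barcodes limit the integrated values, and 1 plasmid library per spacer limits the episomal ones.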
